A study of Mus with 2 samples.

Results

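The genes that encode proteasome subunits, activators, inhibitors and assembly factors were followed across kidney cell clusters of senescent and young mice. Members were all genes of the deposited table with a symbol that starts with Psma, Psmb, Psmc, Psmd, Psme, Psmf or Psmg and a digit, leaving out the inducible subunits Psmb8, Psmb9 and Psmb10. The rule found 41 genes of 8191 in the table, with 104 of its 20111 entries. They comprised 13 genes of the core particle, 18 of the regulatory particle and 10 other genes.

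Single-cell RNA sequencing was done on whole-kidney suspensions of senescent and of young C57BL/6 mice, and each group is 1 droplet library. Cell numbers stated for the series are 4408 for the senescent and 10895 for the young mice. No source used here gives the ages, the sex or the number of mice per library, or the cells per cluster. Each value below is the authors' mean of scaled expression over the cells of a cluster in 1 library. It therefore has no SD, and no test between groups of mice was possible. The adjusted p-values that stand in the authors' deposited table reflect spread between cells only. Which column is senescent and which is young rests on the descriptions in the labels, since the contrast is named in the table by a code without explanation.

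The table has 7 clusters, labelled by the authors as PT and LOH for tubule cells, endo, the immune clusters Marco, T and B, and Neutro. An entry exists only for a gene with a p-value below 0.05 and a log2 fold change of 0.36 or more in either direction in that cluster, so a gene that is not listed cannot be called unchanged. None of the 9 endothelial markers fixed for the check of labels was listed in endo, so these markers could not check that label. The 8 proximal tubule markers listed in endo summed to 149 in the senescent and 418 in the young library. All 10 macrophage markers were listed in Marco, all 9 T cell markers in T and 6 of 7 B cell markers in B, each with the higher mean in the senescent library. Listing needs a difference between libraries, so it is a weak check of a label. In the young library these markers summed to 77.5 in Marco, 31.7 in T and 70.9 in B. The listed proximal tubule markers summed there to 847, 682 and 693. Of 8 LOH markers, 3 were listed in LOH, with a summed mean of 188 in the senescent and 76.9 in the young library. Of the 15 markers of the proximal tubule, 13 were listed in PT, with a summed mean of 262 in the senescent and 946 in the young library.

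The proteasome is the protease complex that degrades proteins tagged with ubiquitin. Its barrel-shaped core particle is built of alpha rings, encoded by Psma genes, around beta rings, encoded by Psmb genes, of which Psmb5, Psmb6 and Psmb7 carry the constitutive catalytic sites. The regulatory particle caps the core, with a ring of ATPases (Psmc genes) that unfold substrates and with non-ATPase subunits (Psmd genes) that bind ubiquitin and remove it. In cells exposed to interferon, Psmb8, Psmb9 and Psmb10 can replace Psmb5, Psmb6 and Psmb7, and the activator encoded by Psme1 and Psme2 can bind the core in place of the regulatory particle. In the kidney, tubule cells and immune cells both use the constitutive proteasome, and immune cells are known for high levels of the inducible form.

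In the mouse reference annotation GRCm38.p6, which is the mm10 build of the series, all 41 members were found as protein-coding genes. They lie on 15 chromosomes, and 1 member, Psmd10, is on the X chromosome. Psmb5 lies on chromosome 14 from 54614120 to 54617995, Psmb6 on chromosome 11 from 70525324 to 70527858 and Psmb7 on chromosome 2 from 38588046 to 38643952. The activator genes Psme1 and Psme2 lie close together on chromosome 14, from 55578494 to 55581527 and from 55587440 to 55591101. Another 7 reference symbols that meet the rule had no entry in any cluster and are not described, namely Psma4, Psma8, Psmb11, Psmc3, Psmc3ip, Psmd7 and Psme2b. The annotation also holds 6 pseudogenes named after Psma5, Psmb5, Psmb6 and Psmb7, so the values of these 4 genes are uncertain to the extent that reads were shared. One member, Psme3ip1, encodes a protein that binds an activator and is not itself a subunit.

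Members were listed in 6 of the 7 clusters and in none of Neutro, where 4.61% of the table's genes were listed. PT and T listed 25 members each, where 61.5% and 53.3% of the table's genes were listed. B listed 20 members (37.6% of the table's genes), Marco 16 (54.5%), LOH 12 (21.5%) and endo 6 (12.6%). The cluster with the most entries is not thereby the most changed, because listing depends on the number of cells. Psmb5 was listed in 6 clusters, Psmc2 and Psmc4 in 5 each, and 11 members in 1 cluster. In every cluster that listed them, 24 members had the lower mean in the senescent library and 9 had the higher mean, while 8 members went both ways. No matching count was made over all genes of the table. The share of listed genes with the lower mean differed between clusters, at 41.7% in Marco and 71.8% in B. The counts are therefore not read as a result about the members. The map of log2 ratios shows the directions of the members gene by gene.

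**Figure D1:**
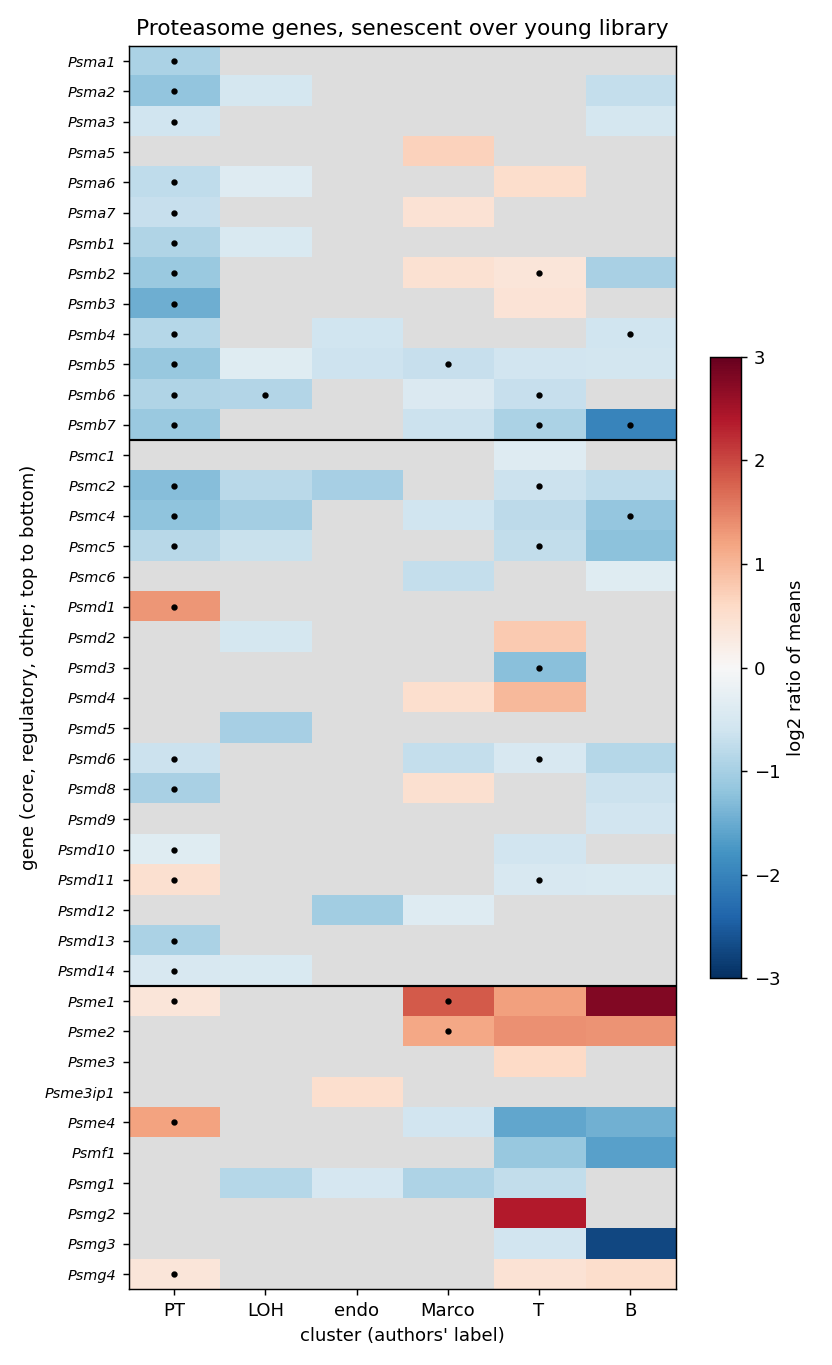
Log2 ratio of the senescent over the young mean (colour) for the 41 members, top to bottom in the order core particle, regulatory particle and other genes, in 6 clusters. Grey marks a gene that is not listed in that cluster, and a dot marks an adjusted p of at most 0.05 in the authors' deposited table. The PT column is blue for all 12 listed core particle genes, and Psme1 is red in the 4 clusters that list it.

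In PT, the core particle was lower as a group in the senescent library. All 12 listed core particle genes had the lower mean and passed the adjusted p of the authors' deposited table, whereas 21.6% of all listed PT genes were lower and passed. Their summed mean was 17.2 in the senescent and 33.8 in the young library, a 1.97-fold difference. Their median log2 ratio was -0.93, against a median of 1.22 over all listed PT genes. The remaining core gene, Psma5, was not listed in PT. This was the only cluster that listed Psma1, an alpha ring subunit, which had a mean of 0.813 in the senescent and 1.56 in the young library.

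The beta ring differed most in Psmb3, a structural beta subunit, which had a mean of 1.37 in the senescent and 3.78 in the young library of PT, a log2 ratio of -1.46. Psmb5, which carries the chymotrypsin-like site, had a mean of 2.09 in the senescent and 4.62 in the young library, a 2.20-fold lower level. Psmb7, with the trypsin-like site, had a mean of 0.778 in the senescent and 1.67 in the young library. All 3 sites thus had the lower mean, since Psmb6, with the caspase-like site, was at 1.60 in the senescent and 3.02 in the young library. The structural subunits Psmb1, Psmb2 and Psmb4 had log2 ratios of -0.91, -1.12 and -0.85. The 5 listed alpha ring genes ranged from -1.19 for Psma2 to -0.59 for Psma3. Psma2 was at 1.57 in the senescent and 3.59 in the young library, and Psma3 was at 1.91 in the senescent and 2.88 in the young library. Psma6 and Psma7 had log2 ratios of -0.75 and -0.69.

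The regulatory particle was less uniform in PT, with 8 lower and 2 higher genes among 10 listed, all past the adjusted p of the authors' deposited table. Over all listed PT genes, 21.6% were lower and passed and 78.3% were higher and passed. Since 5035 of the 5037 listed PT genes passed, passing adds little to being listed there. The 3 listed ATPase genes were all lower. Psmc2 had a mean of 0.509 in the senescent and 1.23 in the young library, a 2.42-fold lower level, and Psmc4 was 2.31-fold lower, at 0.436 in the senescent and 1.01 in the young library. Psmc5 had a log2 ratio of -0.83. Of the non-ATPase genes, Psmd8 and Psmd13, both of the lid, were 1.97-fold and 1.92-fold lower. Psmd14, the deubiquitinating enzyme of the lid, was 1.40-fold lower, at 0.429 in the senescent and 0.601 in the young library. Psmd6, another lid subunit, had a log2 ratio of -0.65. The smallest difference downwards was in Psmd10, which encodes a chaperone of base assembly, at 0.299 in the senescent and 0.386 in the young library.

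The 2 higher regulatory genes in PT were Psmd1 and Psmd11. Psmd1, a large scaffold of the base, had a mean of 0.607 in the senescent and 0.240 in the young library, a 2.52-fold higher level. Psmd11, a lid subunit that holds core and regulatory particle together, had a mean of 0.879 in the senescent and 0.628 in the young library. The other 8 regulatory genes of the table were not listed in PT.

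All 3 listed genes outside the core and regulatory particles were higher in PT, where 78.3% of all listed genes were higher and passed the adjusted p. Psme4, which encodes a single-chain nuclear activator, was at 0.698 in the senescent and 0.301 in the young library, a 2.32-fold higher level. Psme1 had a mean of 0.950 in the senescent and 0.736 in the young library, and Psmg4, a chaperone of alpha ring assembly, had a mean of 1.09 in the senescent and 0.844 in the young library. After subtracting the median of all listed PT genes, Psme4 was at -0.012, Psmd11 at -0.74, Psme1 at -0.86 and Psmg4 at -0.86, so the direction of these 4 depends on the scale, and Psmd1 stayed above 0. These values belong to a cluster whose libraries also differed in other transcripts. Of the 13 listed proximal tubule markers, 8 were lower and 5 higher in the senescent library. Of the 10 macrophage markers, 3 were listed, 2 higher and 1 lower, with a sum of 16.1 in the senescent and 3.68 in the young library. The part of these markers in the proteasome values was not tested.

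**Figure D2:**
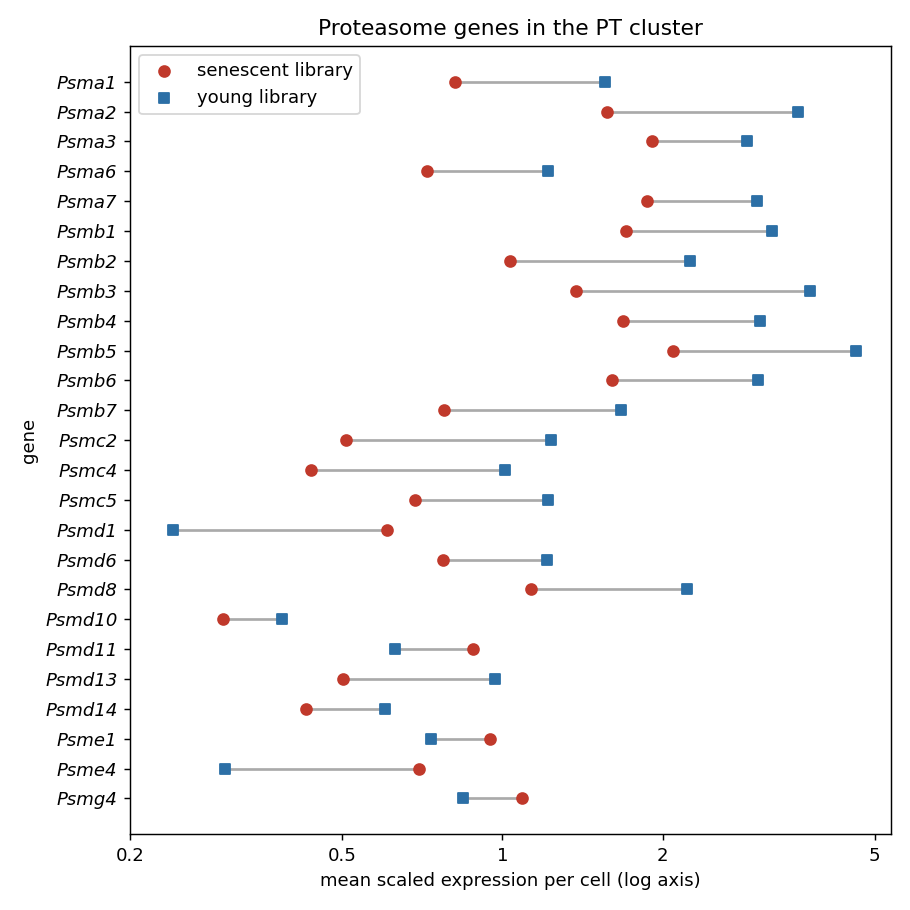
Mean scaled expression per cell (log axis) of the 25 members listed in PT, with the senescent library as circles and the young library as squares, 1 value per library. The circle lies left of the square for 20 genes and right of it for Psmd1, Psmd11, Psme1, Psme4 and Psmg4.

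The members that were higher in PT tended to span more of the genome. The annotated span was 109.4 kb for Psme4, 74.7 kb for Psmd1 and 44.6 kb for Psmd11, but 15.2 kb for Psmg4 and 3.03 kb for Psme1. The median span was 44.6 kb for the 5 higher and 10.8 kb for the 20 lower members, although Psmd14, which was lower, spans 88.7 kb. Over all listed PT genes with a span, the median was 35.6 kb for higher and 8.87 kb for lower genes. These medians were 28.3 kb for higher and 14.0 kb for lower genes in LOH, and 26.9 kb for higher and 17.3 kb for lower genes in endo. In T they were 22.4 kb for higher and 21.4 kb for lower genes, in Marco 22.8 kb for higher and 20.5 kb for lower genes, and in B 17.1 kb for higher and 17.9 kb for lower genes. For members, the medians were 6.49 kb for 7 higher and 11.0 kb for 9 lower genes in Marco. They were 3.66 kb for 3 higher and 18.5 kb for 17 lower members in B, and 11.2 kb and 11.0 kb in T. Longer spans of the higher members were thus not seen in Marco or B. The part of gene span in the proteasome values was not tested. Psmd1 overlaps Htr2b, Psme4 overlaps Erlec1 and Psme1 overlaps Emc9 in the annotation, and whether counting used strand was not given in the sources used here.

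In LOH, the cluster labelled for the loop of Henle, all 12 listed members had the lower mean in the senescent library, against 52.2% of all listed LOH genes, and none had the higher mean, against 47.8%. Psmb6 alone passed the adjusted p of the authors' deposited table (0.00174), where 9.99% of listed LOH genes were lower and passed, and 4.71% were higher and passed. It had a mean of 1.54 in the senescent and 2.83 in the young library, a log2 ratio of -0.88. The median log2 ratio was -0.46 over the 5 listed core genes and -0.73 over the 6 listed regulatory genes, against -0.39 over all listed LOH genes. Psmc4 had means of 0.381 in the senescent and 0.775 in the young library, and Psmc2 had means of 0.461 in the senescent and 0.802 in the young library. Psmd5, a chaperone of base assembly, was at 0.170 in the senescent and 0.341 in the young library. Psmg1, which helps to build the alpha ring, was at 0.273 in the senescent and 0.493 in the young library. The other listed LOH members, Psma2, Psma6, Psmb1, Psmb5, Psmc5, Psmd2 and Psmd14, had log2 ratios between -0.67 and -0.37. Proximal tubule markers were lower for all 14 listed in LOH, with a summed mean of 21.5 in the senescent and 285 in the young library, and their part in these values was not tested.

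In endo, 5 of 6 listed members had the lower mean in the senescent library, against 51.8% of all listed genes there, and 1 had the higher mean, against 48.2%. None of the members passed the adjusted p of the authors' deposited table, which 0.584% of listed endo genes did as lower and 0.389% as higher. Psmd12, a lid subunit, had means of 0.783 in the senescent and 1.62 in the young library, and Psmc2 had means of 0.714 in the senescent and 1.43 in the young library. Psmb4 and Psmb5 had log2 ratios of -0.61 and -0.63, and Psmg1 had a ratio of -0.51. Psme3ip1 was the member with a higher mean, at 0.263 in the senescent and 0.185 in the young library. Of the 8 proximal tubule markers listed in endo, 7 were lower and 1 was higher, with a summed mean of 149 in the senescent and 418 in the young library. Their part in these values was not tested.

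In Marco, the macrophage cluster, the activator genes Psme1 and Psme2 were higher in the senescent library, while the core and regulatory genes were split and the activator gene Psme4 had the lower mean. Psme1 had a mean of 3.97 in the senescent and 1.11 in the young library, a 3.58-fold higher level with an adjusted p of 1.25e-24 in the authors' deposited table. Psme2 was 2.22-fold higher, at 2.03 in the senescent and 0.912 in the young library, with an adjusted p of 0.00194 in the authors' deposited table. These were the 2 members higher and past the adjusted p in Marco, against 24.6% of all listed genes. Psmb5 was the 1 lower member that passed, against 24.8% of all listed genes, with means of 1.73 in the senescent and 2.79 in the young library. Both shares of members lay below those of all listed genes. Without the adjusted p, 7 members had the higher mean, against 58.3% of all listed genes, and 9 the lower mean, against 41.7%.

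Among the 6 listed core genes of Marco, 3 had higher and 3 had lower means, and their summed mean was 10.8 in the senescent and 10.9 in the young library. The 3 lower ones were the catalytic subunit genes, with log2 ratios of -0.69 for Psmb5, -0.44 for Psmb6 and -0.65 for Psmb7. The 3 higher ones were the alpha ring genes Psma5 and Psma7 and the structural beta gene Psmb2, with ratios of 0.68, 0.44 and 0.45. Psma5 was at 1.41 in the senescent and 0.880 in the young library. Annotated pseudogenes are named after all 3 lower genes, and after Psma5 among the higher ones. The part of shared reads was not tested. Of the 6 regulatory genes, Psmd4, which encodes a ubiquitin receptor, and Psmd8 had ratios of 0.51 and 0.49. Psmc4, Psmc6, Psmd6 and Psmd12 had ratios between -0.72 and -0.40. Psme4 and Psmg1 had ratios of -0.58 and -0.93. After subtracting the median of all listed Marco genes, Psma5 was at -0.22, Psma7 at -0.47 and Psmb2 at -0.46. On that scale Psmd4 was at -0.40 and Psmd8 at -0.42. The split of core and regulatory genes thus depends on the scale, while Psme1 (0.93) and Psme2 (0.24) stayed above 0. The proximal tubule markers listed in Marco, 14 in number, were all lower, with a summed mean of 30.4 in the senescent and 847 in the young library. Their part in these values was not tested.

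In T, the shares of members that passed were close to those of all listed genes. There 7 of 25 listed members were lower and past the adjusted p of the authors' deposited table, where 24.0% of all listed genes were, and 1 member was higher and past it, where 6.62% were. They were the catalytic genes Psmb6 and Psmb7, the ATPase genes Psmc2 and Psmc5, and Psmd3, Psmd6 and Psmd11 of the lid, of which Psmd6 and Psmd11 turn positive (0.037 and 0.033) when the median of all listed T genes is subtracted. Psmd3 had means of 0.312 in the senescent and 0.744 in the young library, a 2.38-fold lower level. Psmb7 was 1.92-fold lower, at 0.515 in the senescent and 0.989 in the young library, and Psmb6 was 1.63-fold lower, at 1.32 in the senescent and 2.15 in the young library. Psmc5 was at 0.620 in the senescent and 1.03 in the young library. The higher member was Psmb2, at 1.33 in the senescent and 1.03 in the young library, with an adjusted p of 0.000605 in the authors' deposited table.

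Over all 25 listed members of T, 10 had the higher mean, against 44.8% of all listed genes, and 15 the lower mean, against 55.2%. Among the members that did not pass, Psme1 had means of 5.60 in the senescent and 2.39 in the young library, and Psme2 had means of 3.36 in the senescent and 1.29 in the young library. Psmd4 had a log2 ratio of 0.96, Psmd2, a scaffold of the base, of 0.77, and Psme3, a nuclear activator subunit, of 0.59. Psmg2, a chaperone of the alpha ring, was at 0.398 in the senescent and 0.0766 in the young library, a ratio of 2.38 that rests on a low young mean. Its partner Psmg1 had a ratio of -0.73, and Psmg3 and Psmg4, which form the other chaperone pair, had ratios of -0.58 and 0.44. Psme4 was at 0.190 in the senescent and 0.559 in the young library, a ratio of -1.56. Psmf1, which encodes a proteasome inhibitor, had a ratio of -1.14. The remaining members, Psma6, Psmb3, Psmb5, Psmc1, Psmc4 and Psmd10, had ratios between -0.78 and 0.53. All 15 proximal tubule markers were lower in T, with a summed mean of 27.7 in the senescent and 682 in the young library, and their part was not tested.

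In B, 17 of 20 listed members had the lower mean in the senescent library, against 71.8% of all listed B genes, and 3 had the higher mean, against 28.2%. All 6 listed core genes and all 8 listed regulatory genes were on the lower side, with median log2 ratios of -0.65 and -0.70, against -1.14 over all listed B genes, so that both medians turn positive (0.50 and 0.44) when this value is subtracted. Psmb7, Psmb4 and Psmc4 passed the adjusted p of the authors' deposited table (0.0167, 0.0234 and 0.0459), where 16.4% of listed B genes were lower and passed. Psmb7 was 3.96-fold lower, at 0.324 in the senescent and 1.28 in the young library. Psmc4 had means of 0.297 in the senescent and 0.660 in the young library, and Psmb4, which turns positive (0.56) on the centred scale, had means of 1.44 in the senescent and 2.16 in the young library. No member was higher and past the adjusted p, where 3.31% of listed B genes were.

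Genes outside the core and regulatory particles went both ways in B. Psme1 had means of 4.61 in the senescent and 0.675 in the young library, a 6.83-fold higher level, and Psme2 had means of 1.44 in the senescent and 0.563 in the young library. Psmg3 was at 0.0460 in the senescent and 0.306 in the young library, and Psmf1 was at 0.0849 in the senescent and 0.262 in the young library, so both ratios rest on low senescent means. Psme4 had a log2 ratio of -1.44 and Psmg4 of 0.52. The other listed members, Psma2, Psma3, Psmb2, Psmb5, Psmc2, Psmc5, Psmc6, Psmd6, Psmd8, Psmd9 and Psmd11, had ratios between -1.23 and -0.37. Proximal tubule markers were lower for all 14 listed in B, with a summed mean of 34.2 in the senescent and 693 in the young library. Their part was not tested.

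**Figure D3:**
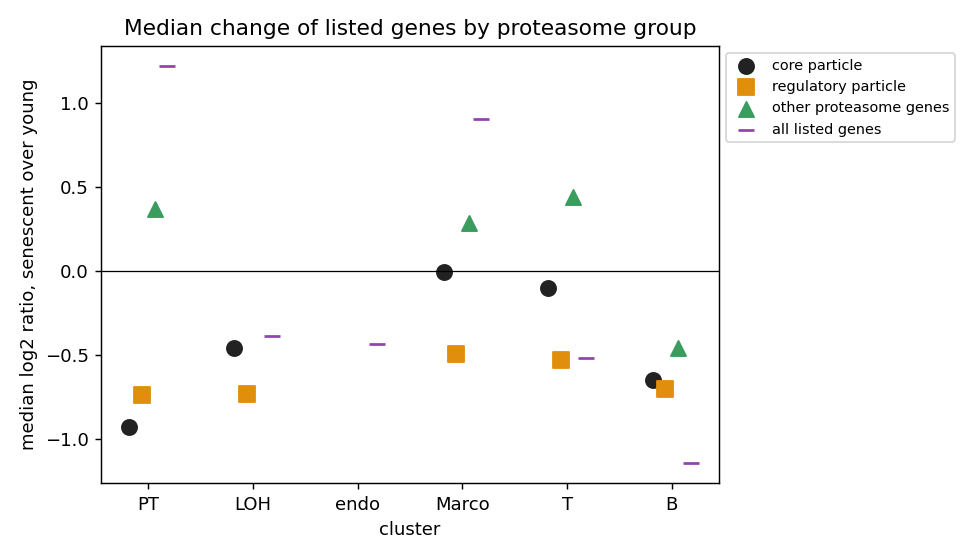
Median log2 ratio of the senescent over the young mean by cluster for the core particle, the regulatory particle, the other proteasome genes and all listed genes, over genes whose larger mean was 0.1 or more, where at least 3 were listed. The core and regulatory medians lie 2.15 and 1.96 below the median of all listed genes in PT, and above it in B.

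Setting group medians beside those of all listed genes gave a different picture in each cluster. In PT, the core and regulatory medians of -0.93 and -0.74 stood against 1.22. In Marco, they were -0.0017 and -0.49 against 0.91, and in T, -0.10 and -0.53 against -0.52. These medians cover listed genes only, and the choice of what is listed depends on the same difference. All clusters share the same pair of libraries, so they are not independent repeats of the comparison.

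The level of a gene can be compared across clusters of 1 library, with the limit that only listed genes have values. Psmb5 ranged from 1.48 in B to 2.27 in endo in the senescent library, a 1.53-fold range, and from 2.17 in B to 4.62 in PT in the young library, a 2.13-fold range. In the senescent library the order from low to high was B, T, Marco, PT, LOH and endo, with PT at 2.09 next to LOH at 2.12. The young order was B, T, LOH, Marco, endo and PT. Psmc2 was highest in endo in both libraries, at 0.714 in the senescent and 1.43 in the young library. Psmc4 was lowest in B in both libraries. Without replicates, neighbours in these orders cannot be told apart.

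For members listed in both PT and another cluster, the median level outside PT in the senescent library was 96.97% of the PT level in LOH (9 genes), 114.9% in endo (3 genes), 109.4% in Marco (10 genes), 90.7% in T (15 genes) and 85.4% in B (15 genes). In the young library it was 76.8% in LOH, 96.9% in endo, 75.2% in Marco, 71.2% in T and 82.7% in B. The proximal tubule markers gave 13.7% in LOH, 57.9% in endo, 8.84% in Marco, 7.79% in T and 8.02% in B in the senescent library. In the young library these markers gave 50.3% in LOH, 65.6% in endo, 87.2% in Marco, 83.0% in T and 75.2% in B. The share of the PT level reached by tubule markers was thus lower in the senescent library in LOH, Marco, T and B, and differed less between the libraries in endo.

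The inducible counterparts of the catalytic subunits were set beside the members of the same clusters. Psmb8, the counterpart of Psmb5, had means of 4.10 in the senescent and 0.962 in the young library in Marco and 5.07 in the senescent and 1.16 in the young library in B. In T it had a mean of 9.31 in the senescent library, 4.44-fold above the young library. It passed the adjusted p of the authors' deposited table in these 3 clusters. In LOH, Psmb8 was at 0.359 in the senescent and 0.0653 in the young library and did not pass. Psmb9 and Psmb10 had log2 ratios of 1.98 and 1.99 in Marco, where both passed. In T, Psmb9 and Psmb10 had ratios of 1.75 and 2.68, and in B, Psmb9 had a ratio of 3.33, none of which passed. None of the 3 inducible genes was listed in PT or endo.

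Within a cluster, any factor that scales all genes alike cancels when the log2 ratio of a constitutive gene is subtracted from that of its inducible counterpart. The difference between Psmb8 and Psmb5 was 2.82 in LOH, 2.78 in Marco, 2.73 in T and 2.68 in B. Psmb9 and Psmb6 differed by 2.42 in Marco and 2.45 in T. Psmb10 and Psmb7 differed by 2.64 in Marco and 3.62 in T. The inducible gene thus had the larger ratio in all 8 pairs with both genes listed, and these values have no replicate check. A factor that differs between genes does not cancel. Psmb5, Psmb6 and Psmb7 have annotated pseudogenes named after them, and the part of shared reads in the pairs was not tested. Listed macrophage markers in Marco summed to 497 in the senescent and 77.5 in the young library. The T cell markers in T summed to 157 in the senescent and 31.7 in the young library. Listed B cell markers in B summed to 198 in the senescent and 70.9 in the young library. The part of such differences in the pairs was not tested.

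**Figure D4:**
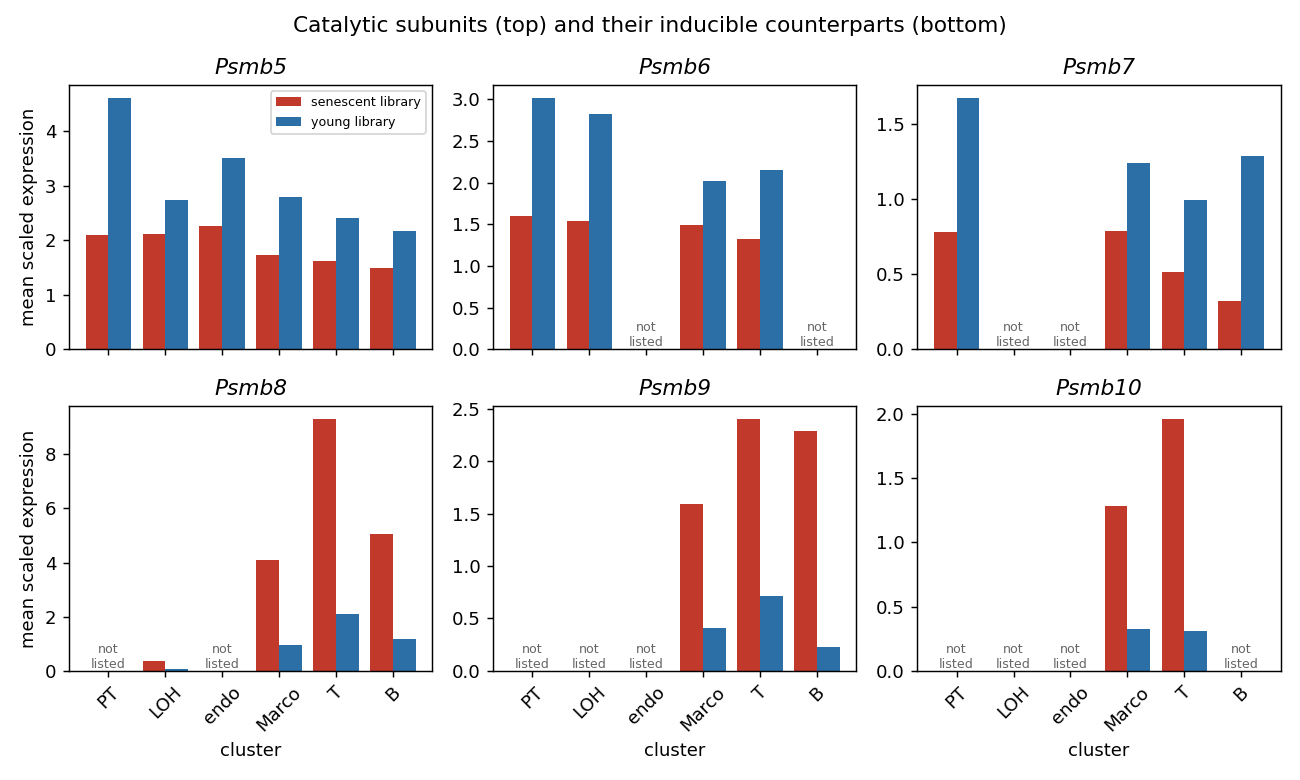
Mean scaled expression per cell by cluster for Psmb5, Psmb6 and Psmb7 (top row) and Psmb8, Psmb9 and Psmb10 (bottom row), with the senescent library left of the young library in each pair of bars, 1 value per library. Psmb5 has the lower senescent bar in all 6 clusters, at 1.48 (senescent) and 2.17 (young) in B and at 2.09 (senescent) and 4.62 (young) in PT, and each listed inducible gene has the higher senescent bar.

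Other genes of the ubiquitin and proteasome pathway were read from lists of 27 symbols beside the inducible subunits, of which Sem1 and Shfm1 name the same gene. In PT, all 5 genes of transcription and processing were higher and past the adjusted p of the authors' deposited table, as were 78.3% of all listed PT genes, so the count is close to that background. Nfe2l2, which encodes a regulator of antioxidant genes, had means of 1.23 in the senescent and 0.245 in the young library. Nfe2l1, which encodes the transcription factor that raises proteasome genes when the proteasome is inhibited, had means of 0.337 in the senescent and 0.147 in the young library. Ddi2, the protease that activates it, was 3.16-fold higher, at 0.705 in the senescent and 0.223 in the young library. Ngly1, which removes glycans from that factor, had a log2 ratio of 0.63.

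Of the 12 shuttle and deubiquitinating genes, 9 were listed in PT, 8 higher and 1 lower, which is also close to the 78.3% of all listed PT genes. Ubqln2, a shuttle factor, and Ube3c, a ubiquitin ligase of the proteasome, had log2 ratios of 1.75 and 1.72. Zfand5, a proteasome-binding protein, was at 1.05 in the senescent and 0.327 in the young library, and Ecpas, a proteasome adaptor, had a log2 ratio of 1.67. Usp14, a deubiquitinating enzyme of the proteasome, had a ratio of 0.92, whereas Uchl5, another one, had a ratio of -0.40. Of the 3 listed assembly and lid genes with other symbols, 2 were lower and 1 higher in PT. Adrm1, a ubiquitin receptor of the base, was 2.50-fold lower, at 0.423 in the senescent and 1.06 in the young library. Pomp, the maturation factor of the core, was at 2.03 in the senescent and 3.38 in the young library. Akirin2, which helps to import proteasomes into the nucleus, was the higher one, at 0.634 in the senescent and 0.451 in the young library. The ubiquitin gene Ubb was 2.93-fold lower, at 11.0 in the senescent and 32.2 in the young library, while Rps27a, which encodes ubiquitin fused to a ribosomal protein, had a ratio of 0.40 and Uba1, the activating enzyme, of 1.01.

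Outside PT, few of these genes passed the adjusted p of the authors' deposited table. In Marco, Nfe2l2, Sem1, Zfand5 and Rps27a passed as higher. Nfe2l2 was at 2.61 in the senescent and 0.542 in the young library there, and Sem1, a small lid subunit, was at 9.65 in the senescent and 3.89 in the young library. In T, Zfand5 and Rps27a passed as higher and Ddi2 as lower, with Ddi2 at 0.303 in the senescent and 0.646 in the young library. In B, Pomp passed as lower and Rps27a as higher, and in LOH and endo none of the listed genes passed. Usp14 in endo was listed at 0.392 in the senescent library and at 0 in the young library.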

How the data were processed

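The members and the gene lists were chosen with earlier results of these data known. Reads were processed with Cell Ranger 2.1.1 on build mm10, per the submitters' processing notes. Cell filters, doublets, free RNA, clustering, scaling and the authors' test are not given in the sources used here. Each deposited group column holds a signal, the authors' mean over cells within a cluster. The deposited log2 fold changes equal the log2 of senescent over young means, each plus 0.0001, within 0.01 in every entry but 1, which is no member. The deposited p-value column was adjusted by the authors under the heading FDR, and the adjusted p is about 32574 times the p-value, as a Bonferroni adjustment gives. Depth is unknown, so no interval was computed.

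Ratios were computed with that pseudocount. Medians took genes whose larger mean was 0.1 or more and needed 3 genes. Called means an adjusted p of at most 0.05. Named with values were the catalytic genes, members listed in at least 5 clusters, in each cluster the 3 largest and 3 smallest ratios, and up to 4 genes per pathway list; other members were named after their values were seen. Promoter and protein sequences were not used here, and part of the pathway lists is not reported here. Alternatives were other pseudocounts, filters, thresholds and centring, and, chosen after seeing the data, leaving out Psme3ip1, genes with pseudogenes or base chaperones. The code for the medians was tested on simulated ratios. Python 3.11.15, numpy 2.4.6, pandas 2.3.3 and matplotlib 3.10.9 were used.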

Additional observations from a re-analysis of the deposited data

Results flagged for a closer look

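A total of 8 members had a higher mean in the senescent library in 1 cluster and a lower mean in another, and the difference between clusters was not tested because each group has 1 library. Psme4 had the widest gap, with log2 ratios of 1.21 in PT and -1.56 in T, a difference of 2.77. Psmb3 had ratios of 0.41 in T and -1.46 in PT, a difference of 1.86. Psmb2 had ratios of 0.45 in Marco and -1.12 in PT, a difference of 1.58. Psmd8 had ratios of 0.49 in Marco and -0.98 in PT, a difference of 1.47. Psmd2 had ratios of 0.77 in T and -0.53 in LOH, a difference of 1.30. Psma6 had ratios of 0.53 in T and -0.75 in PT, a difference of 1.28. Psma7 had ratios of 0.44 in Marco and -0.69 in PT, a difference of 1.12. Psmd11 had ratios of 0.49 in PT and -0.48 in T, a difference of 0.97, and of these 8 pairs of extremes it was the 1 in which both values passed the adjusted p of the authors' deposited table. Both of its directions turn round, to -0.74 in PT and 0.033 in T, when the median of all listed genes of the cluster is subtracted.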

How the results depend on the processing

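No paired analysis was possible because each group has 1 library. A value was taken as moved where it changed by 0.36 or more on the log2 scale, the smallest difference listed. The cause of the changes was not tested. The PT counts of 5 higher and 20 lower members became 2 and 7 past a log2 fold change of 1 in either direction. That threshold left 0 lower members in LOH, 0 lower in Marco, 0 higher and 1 lower in T. With no adjusted p, higher and lower members numbered 1 and 5 in endo, 7 and 9 in Marco, 10 and 15 in T and 3 and 17 in B, and 12 were lower in LOH. An adjusted p of at most 0.01 left 0 lower in B. Without genes with pseudogenes, 0 were lower in LOH and in Marco, and the core median in T reversed to 0.41. Leaving out Psme3ip1 could not change a count past the adjusted p, because it did not pass in endo, the only cluster that lists it. Leaving out the base chaperones changed no regulatory median by 0.36, and counts were not made without them. Psmc3ip had no entry, so leaving it out could not be run.

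Centring on the median of all listed genes shifted ratios by up to 1.22 in the 6 clusters that list members. Core medians became -2.15 in PT, -0.072 in LOH, -0.91 in Marco, 0.41 in T and 0.50 in B. Regulatory medians became -1.96 in PT, -0.35 in LOH, -1.40 in Marco, -0.010 in T and 0.44 in B. Medians of the other genes became -0.86 in PT, -0.62 in Marco, 0.96 in T and 0.69 in B. Called genes that reversed were Psmd11 (-0.74), Psme1 (-0.86), Psme4 (-0.012) and Psmg4 (-0.86) in PT, Psmd11 (0.033) and Psmd6 (0.037) in T, and Psmb4 (0.56) in B. The direction of these genes thus depends on the scale. So does that of the core medians in T and B and of the regulatory median in B. The medians of the other genes in PT, Marco and B also change direction. The core median in PT was below 0 and the median subtracted there was 1.22, so this centring could not reverse it.

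With a pseudocount of 1 the regulatory medians were -0.35 in PT, -0.25 in LOH and -0.33 in B, and the median of the other genes in B was 0.015. A pseudocount of 0.1 put the core median in Marco at 0.0036. Under the main settings the median of the other genes was 0.29 in Marco, 0.44 in T and -0.46 in B. A mean of at least 0.5 put it at 1.15 in Marco, 0.84 in T and 0.94 in B. In B this median thus reversed, as it also did with a pseudocount of 1. Over members past the adjusted p, the core median in T was -0.70.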
